A study of Homo sapiens with 24 samples.

Results

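The DLX family was followed through gene-level read counts as 5 features, DLX1, DLX2, DLX5, DLX6 and the long noncoding RNA DLX6-AS1, taken by name from the 61248 features of each count table. These members were chosen with earlier results of these data known, on the day 14 difference between BRAT1 knockout and control libraries, so their values in that comparison are a description and carry no test. Of the 8 features named DLX, the remaining ones are DLX3, DLX4 and DLX2-DT. The cells were H7, a human embryonic stem cell line. BRAT1 encodes a protein that binds the INTS11 and INTS9 endonuclease module of Integrator, a complex that cleaves nascent RNA. At day 14, differentiated neural progenitors of 2 BRAT1 knockout (KO) lines and 2 control lines were sampled, and at day 0 undifferentiated stem cells of the same 4 lines, with 3 biological replicates lettered A to C in each line and day. Each genotype therefore has n = 6 libraries a day, from 2 lines only, and spread between libraries of a line is not spread between independently edited lines. The labels give neither the edit in each line nor whether a line is a single clone.

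DLX genes encode homeodomain transcription factors and lie in the genome as pairs that point at each other, DLX1 with DLX2 and DLX5 with DLX6. In the mouse embryo they act in the ganglionic eminences, the ventral forebrain zones that produce GABAergic interneurons and striatal neurons, where DLX1 and DLX2 act in progenitors and DLX5 and DLX6 follow in their progeny. The same genes also pattern the branchial arches and take part in bone formation. DLX6-AS1, whose mouse counterpart is called Evf2, is a long noncoding RNA read from the strand opposite DLX6. Its annotation starts between DLX5 and DLX6 and runs over DLX6 and beyond it, away from DLX5.

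Library totals were 2228736 to 3726227 counts at day 14 and 1407832 to 2143871 at day 0. The strand of the RNA bears on every value. In 2276 pairs made of a coding gene and a gene antisense to it, with at least 100 exonic bases in common, 70.2% had more counts under the antisense name, as reads assigned to the strand opposite their RNA would give. Where the antisense name had at least 1000 counts and at least 10 times as many as the coding gene (631 pairs), the coding gene had 2.81 ± 0.701 counts per 100 antisense counts in day 14 KO libraries and 1.97 ± 0.225 in day 14 control libraries (SD, n = 6 each), called the wrong-strand percent here. At day 0 this percent was 0.842 ± 0.0336 in KO and 0.817 ± 0.131 in control libraries. Whether the counts under a DLX name come from RNA of that gene or from RNA of the other strand was not tested. BRAT1 itself stood at 46.2 ± 38 CPM (counts-per-million of the library total) in day 14 KO libraries and 252 ± 45.9 CPM in day 14 control libraries, and at 1.69 ± 2.73 CPM in day 0 KO libraries and 0.657 ± 1.18 CPM in day 0 control libraries, so it checks the labels at day 14 only. POU5F1, a pluripotency factor, averaged 4.61 CPM in KO and 2.58 CPM in control libraries at day 14, against 36.7 CPM in KO and 37.3 CPM in control libraries at day 0, and NES, an intermediate filament of neural progenitors, averaged 271 CPM in KO and 109 CPM in control libraries at day 14, against 23.9 CPM in KO and 39.1 CPM in control libraries at day 0.

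3 stretches of reference sequence are shown: the member promoter with the most homeodomain cores, a member promoter with none, and a small feature of the DLX6-AS1 locus with a high count. The RefSeq promoter table (GRCh38.p14, 250 bases before to 50 after a start site) held 4 of the 5 members. The letters ATTA, the core that homeodomain proteins recognise, were searched on both strands, so TAAT counts too, and are in capitals below, overlapping matches included. The DLX6-AS1 promoter (chr7:97014016-97014315, minus strand) had 12 such cores, a number that 0.159% of the 35116 promoters in the table reach, and it held 1 site of the longer TAATTA, which 4.84% of promoters hold. DLX2 (chr2:172102851-172103150, minus strand) and DLX6 had no core, and DLX1 had 1, while 50.2% of promoters had at least 1. The core holds only A and T, and the DLX6-AS1 promoter had 36% G and C, against 59% for DLX1, 67.7% for DLX2 and 67% for DLX6. The share of 0.159% is over all promoters of the table and is not matched for this composition. A match is only a run of letters and not a site of binding.
DLX6-AS1 promoter: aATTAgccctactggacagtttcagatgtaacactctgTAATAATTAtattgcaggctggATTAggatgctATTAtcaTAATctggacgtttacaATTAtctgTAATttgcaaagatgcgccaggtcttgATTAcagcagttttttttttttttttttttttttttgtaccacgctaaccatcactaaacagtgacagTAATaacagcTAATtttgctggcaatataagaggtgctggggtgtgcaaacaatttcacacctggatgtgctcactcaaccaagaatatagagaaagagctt
DLX2 promoter: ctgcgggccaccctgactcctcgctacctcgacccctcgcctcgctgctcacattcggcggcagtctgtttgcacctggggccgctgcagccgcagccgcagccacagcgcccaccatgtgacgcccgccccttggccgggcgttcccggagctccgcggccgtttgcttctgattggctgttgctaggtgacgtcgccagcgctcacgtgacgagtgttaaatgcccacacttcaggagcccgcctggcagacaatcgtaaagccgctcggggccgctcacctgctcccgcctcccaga

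The third stretch is ENSG00000277124, a small feature that GENCODE release 29 types as miscellaneous RNA on the plus strand. All of its 207 bases (chr7:96965489-96965695, GRCh38) lie opposite an exon of DLX6-AS1, which is on the minus strand. It is shown because it had more counts per base at day 14 than any member. Capitals mark the polyadenylation hexamers AATAAA and ATTAAA, which poly(A) RNA often carries near its end, searched on both strands. It had 1 on the plus strand and 2 on the minus strand, and 2.6% of 197920 stretches of the same length from the middle of release 29 transcripts had at least 1 on each strand.
ENSG00000277124: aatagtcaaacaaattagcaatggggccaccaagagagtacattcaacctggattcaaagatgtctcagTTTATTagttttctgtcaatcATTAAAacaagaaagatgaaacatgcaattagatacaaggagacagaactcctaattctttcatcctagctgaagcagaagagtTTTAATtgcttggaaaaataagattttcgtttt

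All 5 members had counts in each of the 6 day 14 KO libraries and few or none in control libraries. Summed over the members, the level was 208 ± 18 CPM in KO line 1 and 95.8 ± 17.2 CPM in KO line 2, against 3.62 ± 1.96 CPM in line 1 of the controls and 4.75 ± 1.28 CPM in their line 2 (SD, n = 3 each). In this comparison 21.7% of the 11408 features that passed the filter on low counts were called at a Benjamini-Hochberg adjusted p under 0.05 by the edgeR quasi-likelihood test, 11% higher and 10.7% lower in KO. 4 of the 5 members passed that filter, and DLX6 did not. Since the members were picked on this difference, nothing is read from their number among the calls.

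DLX1, a homeodomain factor of ventral forebrain progenitors (chr2:172084740-172089677, plus strand), had 237, 213 and 280 counts in KO line 1 and 83, 108 and 135 in KO line 2, against 0, 1 and 0 in line 1 of the controls and 0, 2 and 1 in their line 2. Every KO library was above every control library. The mean was 57.8 ± 25.5 CPM in KO and 0.225 ± 0.262 CPM in control libraries (SD, n = 6 each), and the pooled counts, 1056 against 4, give a ratio of 277 (95% exact interval 108 to 1020, counting error only).

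DLX2, its partner on the other strand (chr2:172099439-172102900), had 28, 34 and 92 counts in KO line 1 and 15, 13 and 56 in KO line 2, against 0 in all 6 control libraries. Replicate C was the highest library of both KO lines, at 24.7 CPM in line 1 and 17.8 CPM in line 2, and the same libraries had the highest wrong-strand percents, 3.64 and 3.6; the part of that percent in the level was not tested. The mean was 12.4 ± 7.81 CPM in KO libraries. The pooled 238 counts in KO were at least 83.2-fold higher than in control libraries per count sequenced, when the 0 of the controls is set at a floor of 3 counts over the group.

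DLX5, which acts in differentiating GABAergic cells and in bone (chr7:97020392-97024950, minus strand), had 79, 59 and 199 counts in KO line 1 and 47, 35 and 39 in KO line 2, against 0, 0 and 1 in line 1 of the controls and 0, 1 and 0 in their line 2. The groups did not overlap, and KO line 1 replicate C, at 53.4 CPM, was well above the remaining KO libraries, at 11 to 29.4 CPM. The mean was 24 ± 15.9 CPM in KO and 0.103 ± 0.16 CPM in control libraries, and pooled counts of 458 and 2 give a ratio of 240 (66.1 to 1990).

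DLX6 (chr7:97005548-97011039, plus strand), the partner of DLX5, was the lowest member. It had 7, 9 and 47 counts in KO line 1 and 25, 13 and 3 in KO line 2, against 4, 0 and 1 in line 1 of the controls and 0, 1 and 0 in their line 2. It was the only member whose groups overlapped: KO line 2 replicate C, at 0.954 CPM, lay under control line 1 replicate A, at 1.09 CPM. The mean was 5.38 ± 4.41 CPM in KO and 0.284 ± 0.421 CPM in control libraries, and pooled counts of 104 and 6 give a ratio of 18.2 (8.08 to 50.7), with 4 of the 6 control counts in a single library.

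DLX6-AS1 (chr7:96955141-97014065, minus strand), which surrounds DLX6 with an intron and shares no exon bases with it, was the only member with counts in every day 14 control library. It had 157, 266 and 218 counts in KO line 1 and 62, 122 and 128 in KO line 2, against 10, 4 and 15 in line 1 of the controls and 12, 15 and 11 in their line 2. The lowest KO library, at 21.7 CPM, was above the highest control library, at 4.94 CPM. The mean was 52.4 ± 25.9 CPM in KO and 3.57 ± 1.44 CPM in control libraries, a pooled ratio of 14.9 (11.6 to 19.4). Of the counts under DLX6 and DLX6-AS1 together, DLX6-AS1 held 89 ± 10.4% in KO and 93.2 ± 11.1% in control libraries.

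So 4 of the 5 members had all KO libraries above all control libraries. Of the 11408 features tested, DLX6 not among them, 4.75% showed this arrangement. Since the members were picked on this difference, nothing is read from their number here either. The DLX features outside the rule were low. DLX3, an epidermal and placental factor, had 12 counts in KO libraries, 11 of them in KO line 2 replicate C, and 2 in control libraries. DLX4 had 1 count in KO and 2 in control libraries, and DLX2-DT, a transcript that diverges from DLX2, had 0 in KO and 1 in control libraries.

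**Figure D1:**
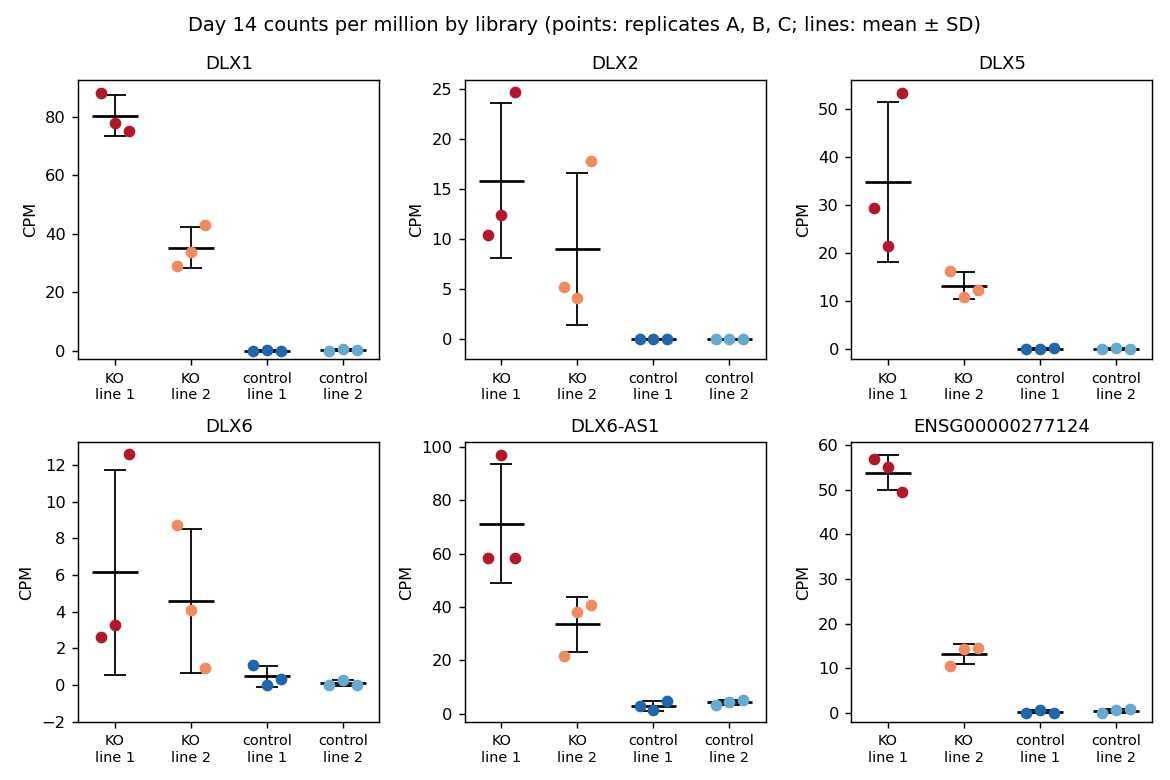
Day 14 CPM (vertical axis) of the 5 members and of ENSG00000277124, by line (horizontal axis, KO lines left of control lines). Points are replicates A, B and C from left to right and black lines the mean ± SD of 3 libraries; KO line 1 averaged 80.3 CPM of DLX1 and KO line 2 35.3 CPM, and only DLX6 overlaps between KO and control libraries.

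Levels can be set against each other once divided by exon length. Per kb of annotated exon, DLX1 came first in KO libraries at 15.8 ± 6.96 CPM per kb, then DLX5 at 13.7 ± 9.09, DLX2 at 4.19 ± 2.63, DLX6-AS1 at 3.15 ± 1.56 and DLX6 at 1.56 ± 1.28 (SD, n = 6). Neighbours in this order were not apart in every library: DLX1 exceeded DLX5 in 4 of the 6 KO libraries and DLX6-AS1 exceeded DLX6 in 4, while DLX1 exceeded DLX2 and DLX5 exceeded DLX6 in all 6. For scale, 51 ribosomal protein genes with nothing annotated on the other strand had a median of 7.66 CPM per kb in KO and 9.27 CPM per kb in control libraries, and the DLX1 and DLX5 means in KO were above that median. The doubt about strand covers these genes too: their median was 21.3 CPM in KO and 22 CPM in control libraries, so they are a scale for these tables and do not show how strongly a gene was transcribed. Exon lengths are those of release 29 for all isoforms together, 16633 bases for DLX6-AS1 and 1748 for DLX5, and the release used for counting is not given in the sources used here.

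ENSG00000277124, the small feature opposite DLX6-AS1 whose sequence is printed above, had 153, 151 and 184 counts in KO line 1 and 30, 46 and 46 in KO line 2, against 0, 2 and 0 in line 1 of the controls and 0, 2 and 2 in their line 2. The mean was 33.5 ± 22.4 CPM in KO and 0.353 ± 0.401 CPM in control libraries, and KO libraries did not overlap control libraries. Since it was singled out for its high day 14 counts and may hold DLX6-AS1 reads, this difference is given without a test. Per kb this is 162 ± 108 CPM in KO libraries. Base for base it had 48.3 ± 20.4 times the counts of DLX6-AS1 in KO libraries, from 28.9 to 78.3. With the strand reading above, reads of DLX6-AS1 RNA from this exon would be listed under this small feature, and its own plus-strand RNA would be listed under DLX6-AS1; the strand of these reads was not tested.

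**Figure D2:**
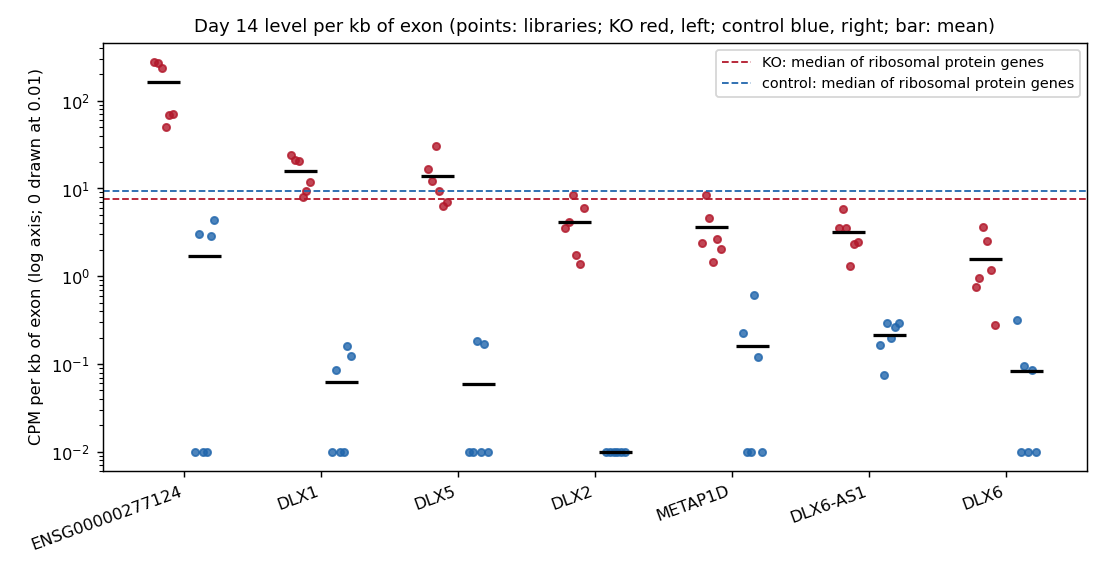
Day 14 level in CPM per kb of exon (log axis) of the 5 members, METAP1D and ENSG00000277124, with KO libraries in red on the left and control libraries in blue on the right of each name, values of 0 drawn at 0.01 and bars for means. Dashed lines are the medians of ribosomal protein genes, 7.66 in KO and 9.27 in control libraries; DLX1 and DLX5 have KO means above them and ENSG00000277124 stands at 162.

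Around both loci, features starting within 300000 bases with at least 100 counts over the 24 libraries were examined. METAP1D, a mitochondrial methionine aminopeptidase gene on the DLX1 strand, ends 2310 bases before DLX1 starts. It had 31, 113 and 83 counts in KO line 1 and 20, 41 and 31 in KO line 2, against 4, 0 and 0 in line 1 of the controls and 11, 2 and 0 in their line 2. It rose in KO (log2 fold change 4.30, SE 0.68, edgeR adjusted p = 8.28e-05), and the lowest KO library, at 7 CPM, was above the highest control library, at 3 CPM. METAP1D had no counts at day 0. It reached the 100 counts and the filter through its day 14 KO libraries, and its call is given with that limit. SLC25A12, a mitochondrial aspartate-glutamate carrier gene on the other strand, starts inside METAP1D and runs back over the METAP1D start. The SLC25A12 start is at chr2:171999859 and the METAP1D start at chr2:171999583. The part of this overlap in either rise was not tested. SLC25A12 rose by 2.09 (SE 0.48, edgeR adjusted p = 0.00204), with 8.71 ± 1.97 CPM in KO and 2.03 ± 0.927 CPM in control libraries. HAT1, a histone acetyltransferase gene further out, had 2.61 ± 1.31 CPM in KO and 0.778 ± 0.551 CPM in control libraries and did not enter the test. On the DLX5 side, SEM1, a proteasome subunit gene, had 12.8 ± 4.74 CPM in KO and 6.6 ± 2.6 CPM in control libraries (log2 fold change 0.90, SE 0.36, edgeR adjusted p = 0.0759), a difference that was called without KO line 1 replicate A (0.0389). The pseudogene MARK2P10 had 142 of its 144 counts in 1 day 0 control library. The order of these features along the chromosome, with means, is drawn in the map of both loci.

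**Figure D3:**
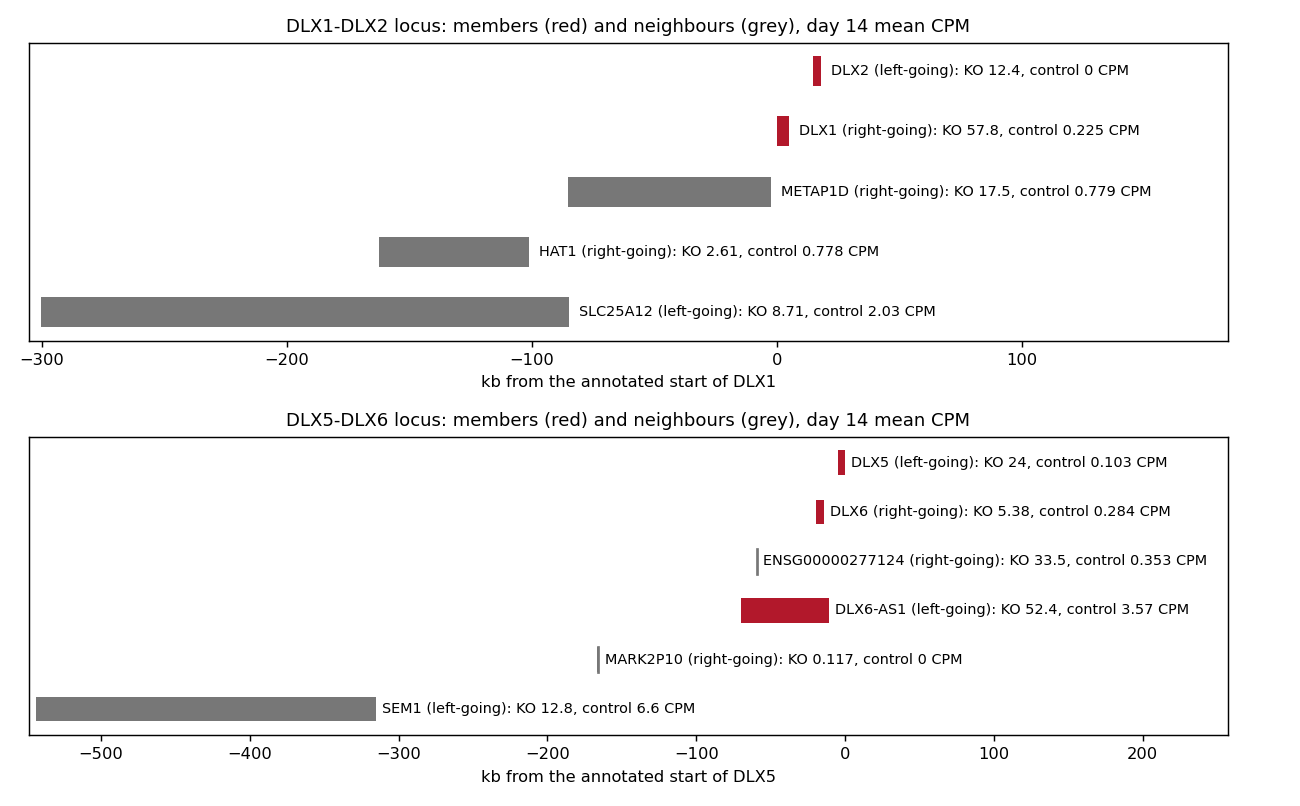
Map of the DLX1-DLX2 and DLX5-DLX6 loci, with distance in kb from the annotated start of DLX1 or DLX5 on the horizontal axis, members in red and neighbours with at least 100 counts in grey, and day 14 mean CPM of KO and control libraries beside each bar. METAP1D, which runs up to DLX1, had 17.5 CPM in KO and 0.779 CPM in control libraries, and ENSG00000277124 lies inside DLX6-AS1.

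At day 0 the family had 0 counts in nearly every library of both genotypes. DLX2, DLX5 and DLX6-AS1 had 0 counts in all 12 libraries, which allows up to 0.278 CPM over the KO libraries and 0.294 CPM over the control libraries by the floor of 3 counts. DLX6 had 1 count in 1 control library. DLX1 had 53 counts, or 30.4 CPM, in KO line 1 replicate B and 0 in the other 11 libraries. Counts of this kind were not particular to DLX1: 35 features had at least 50 counts in exactly 1 day 0 library and none in the others, and 13 of them had theirs in that same KO line 1 replicate B. No member passed the filter in the day 0 comparison of KO with control, where 0% of 4832 features were called by edgeR (99 had an unadjusted p under 0.05, and DESeq2 also called 0).

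Between the days, in control lines, DLX6-AS1 had 67 counts at day 14 and 0 at day 0. By the floor DLX6-AS1 was at least 11.9-fold higher at day 14, and edgeR's fit gave a log2 fold change of 5.99 (SE 1.16). It passed the filter of that fit, made over all 24 libraries, through its day 14 KO levels, on which it was chosen. Its values between the days are therefore given without a test. Of the 10971 features tested, 42.8% were called in that comparison. In control lines DLX1 had 4 counts at day 14 and 0 at day 0 and DLX5 had 2 and 0, too few to read a call from, and DLX2 and DLX6 did not enter the test. In KO lines, day 14 exceeded day 0 by 11.7-fold for DLX1 (95% exact interval 8.89 to 15.7), whose 53 counts at day 0 lay in 1 library, and by at least 46.7-fold for DLX2, 89.8-fold for DLX5, 20.4-fold for DLX6 and 187-fold for DLX6-AS1. The choice of the members used the day 14 KO levels, so these folds are given without a test. The wrong-strand percent was 0.58 to 0.943 in day 0 libraries and 1.58 to 3.64 in day 14 libraries. Its part in the folds between days was not tested. Over the features tested in control lines, 3115 were called higher and 1584 lower at day 14, with a median log2 fold change of 0.60.

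The difference between the 2 KO lines did not enter the choice of members. All 5 had a lower fitted level in KO line 2 than in KO line 1, and none passed the adjusted threshold, which 1.23% of 15000 features passed. DLX1 averaged 35.3 ± 7.05 CPM in KO line 2 and 80.3 ± 6.9 CPM in KO line 1 (log2 fold change -1.24, SE 0.34, edgeR adjusted p = 0.0573). DLX5 averaged 13.3 ± 2.84 CPM in KO line 2 and 34.8 ± 16.6 CPM in KO line 1 (-1.41, SE 0.48, edgeR adjusted p = 0.175). DLX6-AS1 averaged 33.6 ± 10.3 CPM in KO line 2 and 71.3 ± 22.3 CPM in KO line 1 (-1.13, SE 0.36, edgeR adjusted p = 0.131).

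For these 3 members all libraries of line 2 lay below all of line 1, as 6.45% of features did. DLX2 (-0.85, edgeR adjusted p = 0.728) and DLX6 (-0.41, edgeR adjusted p = 0.948) overlapped between the KO lines, and the sign for DLX6 turned without replicate C of KO line 2 (0.08) or of KO line 1 (0.51). ENSG00000277124 passed the threshold, with 13.2 ± 2.33 CPM in KO line 2 and 53.8 ± 3.93 CPM in KO line 1 (-2.07, SE 0.45, edgeR adjusted p = 0.01), a call lost without KO line 1 replicate A (adjusted p = 0.0586) or without KO line 2 replicate A (0.0786). METAP1D had the same sign without a call (-1.35, SE 0.66, edgeR adjusted p = 0.455). BRAT1 differed the other way, at 80.4 ± 8.18 CPM in KO line 2 and 11.9 ± 4.67 CPM in KO line 1 (2.70, SE 0.23, edgeR adjusted p = 1.09e-09), and its part in the DLX levels was not tested. Between control line 2 and control line 1, where 0.107% of features were called, DLX6-AS1 was not (log2 fold change 0.49, SE 0.47, edgeR adjusted p = 1); the other members had 0 to 6 counts in the control libraries, and nothing is read from them there.

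**Figure D4:**
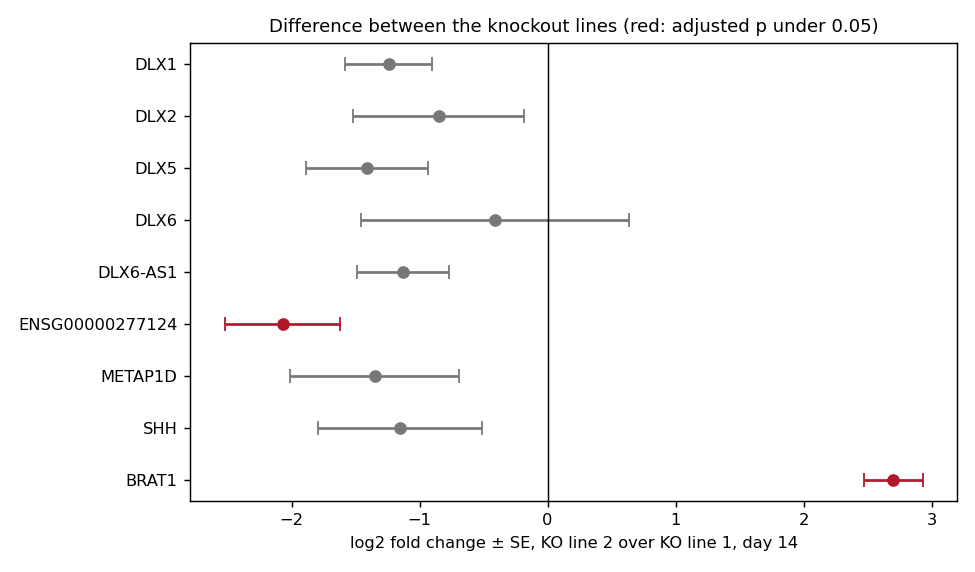
log2 fold change of KO line 2 over KO line 1 at day 14 (horizontal axis, bars ± SE, 3 libraries a line) for the members, 2 locus neighbours, SHH and BRAT1, in red where the adjusted p was under 0.05. The 5 members sit between -1.41 and -0.41, ENSG00000277124 at -2.07 and BRAT1 at 2.70.

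The genes that work with the DLX factors were read from 8 lists, also chosen with earlier results known. In bulk RNA fewer cells of a type cannot be told apart from less RNA per cell. Over all features tested the median log2 fold change of KO over control was 0.07. Among 11 regulators of the ganglionic eminences 7 were tested, of which 5 rose and 0 fell, with a median of 2.24. NKX2-1, which specifies the medial eminence and the hypothalamus, had 25.4 ± 13.1 CPM in KO and 0.689 ± 0.841 CPM in control libraries (5.11, SE 0.53, edgeR adjusted p = 6.83e-08). SIX3, an anterior forebrain factor, rose by 3.34 (SE 0.35, edgeR adjusted p = 1.43e-06) and HES5, a Notch target, by 1.78 (SE 0.27, edgeR adjusted p = 4.36e-05).

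VAX1 and GLI3 were not called, with 2.83 CPM in KO and 5.78 CPM in control libraries and with 4.67 CPM in KO and 6.45 CPM in control libraries. Of the defining markers, GSX2, which lies upstream of DLX genes in the mouse lateral eminence, had 0 counts in all 12 day 14 libraries. The summed level of this list was 138 to 346 CPM in KO and 22.4 to 75.4 CPM in control libraries. So 5 regulators of the list were higher in KO while GSX2 was at 0 in both genotypes.

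Of 23 genes of the GABAergic lineage, including genes that DLX factors regulate in the mouse, 11 were tested, of which 6 rose and 1 fell, with a median of 0.85. ACKR3, a chemokine receptor of migrating interneurons, rose by 1.62 (SE 0.36, edgeR adjusted p = 0.00161) and MEIS2, a homeobox gene of the striatal lineage, by 0.80 (SE 0.19, edgeR adjusted p = 0.0031). The GABA-synthesising enzyme genes GAD1 (0.79, edgeR adjusted p = 0.00829) and GAD2 (1.94, edgeR adjusted p = 0.0099), MAF (1.52) and PROX1 (0.91) also rose.

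SST, the interneuron peptide somatostatin, fell by 1.49 (edgeR adjusted p = 0.0179), with 4.81 ± 3.74 CPM in KO and 13.5 ± 2.05 CPM in control libraries. SOX6, with 52.7 CPM in KO and 38.3 CPM in control libraries, and SATB1, with 10.1 CPM in KO and 5 CPM in control libraries, were not called. SLC32A1, the vesicular GABA transporter, and LHX6, a medial eminence factor, did not enter the test, at 105 counts in KO and 4 in control libraries and at 67 in KO and 5 in control libraries. Untested genes of this list went both ways: ISL1, a homeobox gene of striatal and motor neurons, had 1 count in KO and 25 in control libraries, and PENK, which encodes the enkephalin precursor, had 8 in KO and 29 in control libraries. MEIS2 is a case where the strand matters: the feature on its other strand, ENSG00000259460, fell by 0.53 (edgeR adjusted p = 0.039). For GAD1 the opposite feature ENSG00000235934 rose by 2.14 (edgeR adjusted p = 0.000171). The largest change opposite a gene of this list was at NRP2, where ENSG00000225216 fell by 2.21 (edgeR adjusted p = 3.09e-09). NRP2 was not called (-0.46, edgeR adjusted p = 0.637). Opposite SP9, ENSG00000280414 rose by 0.94 (edgeR adjusted p = 0.0105). The alternatives below were not read for the features opposite NRP2 and SP9. Genes of this list other than ACKR3, MEIS2, GAD1, SOX6 and SATB1 were chosen for naming after their values were seen.

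Other regional lists were read the same way. All 3 tested genes of 10 for the hypothalamus and eye field rose, with FEZF2 at 5.52 (SE 0.48, edgeR adjusted p = 1.82e-09), FEZF1 at 3.88 (SE 0.26, edgeR adjusted p = 5.51e-10) and NKX2-2 at 1.32 (SE 0.34, edgeR adjusted p = 0.00536), and their list summed to 164 to 268 CPM in KO and 15.6 to 26.5 CPM in control libraries. Of 9 dorsal telencephalic genes 3 were tested: EMX2 rose by 1.30 (edgeR adjusted p = 0.00131), NEUROD1, a factor of glutamatergic neurons, fell by 3.76 (edgeR adjusted p = 3.68e-05), and PAX6 had 108 CPM in KO and 84.4 CPM in control libraries (0.34, edgeR adjusted p = 0.107).

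Since DLX genes are also used outside the brain, neural crest, branchial arch and placode genes were counted. Of 12, 4 were tested and 0 rose while 3 fell, with a median of -2.21. SOX10 had 9.72 ± 7.02 CPM in KO and 69.4 ± 12.1 CPM in control libraries (-2.85, SE 0.46, edgeR adjusted p = 0.000566), TFAP2B fell by 4.44 (edgeR adjusted p = 1.19e-05) and EYA2 by 1.56 (edgeR adjusted p = 0.00226). TFAP2A had 15.2 CPM in KO and 12.6 CPM in control libraries (0.23, edgeR adjusted p = 0.696). The genes of this list that did not enter the test went both ways: HAND2, MSX1 and MSX2 were at 0 in KO and at 4, 12 and 34 counts in control libraries, FOXD3 had 9 counts in KO and 27 in control libraries, and PRRX1 had 19 in KO and 46 in control libraries, while GATA3 had 103 counts in KO and 4 in control libraries, TWIST1 had 20 in KO and 0 in control libraries, and EYA1 had 42 in KO and 25 in control libraries. FOXD3-AS1, on the strand opposite FOXD3, is given below with other opposite features. The neural crest, arch and placode list summed to 20.1 to 73.1 CPM in KO and 97.4 to 145 CPM in control libraries, and its part in the DLX levels was not tested.

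None of 5 osteoblast genes entered the test, and they summed to 1.34 to 9.86 CPM in KO and 0 to 3.82 CPM in control libraries. Of 6 pluripotency genes 4 were tested and 0 were called, with LIN28A at 57.3 CPM in KO and 61.8 CPM in control libraries and DPPA4 at 10.8 CPM in both. All 5 pan-neural progenitor genes were tested and 2 rose, NES by 1.30 (edgeR adjusted p = 1.69e-05) and SOX1 by 1.83 (edgeR adjusted p = 0.0029), while VIM had 228 CPM in KO and 163 CPM in control libraries (0.44, edgeR adjusted p = 0.137).

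Features annotated opposite exons of these genes were counted in the same fit. Of 2 tested opposite eminence regulators 2 rose, and of 3 opposite hypothalamus and eye field genes 3 rose. Of 6 tested opposite GABAergic genes 2 rose and 2 fell, and of 5 opposite neural crest, arch and placode genes 0 rose and 2 fell. Of 3 tested opposite dorsal genes 1 rose, and of 4 opposite pan-neural genes 0 were called. NKX2-1-AS1, opposite NKX2-1, rose by 4.15 (SE 0.22, edgeR adjusted p = 8.22e-13) and FEZF1-AS1, opposite FEZF1, by 4.53 (SE 0.17, edgeR adjusted p = 2.61e-17). Of the 2 that fell opposite neural crest, arch and placode genes, FOXD3-AS1, opposite FOXD3, fell by 5.72 (SE 0.48, edgeR adjusted p = 9.05e-09). FOXD3-AS1 had 0.915 ± 1.02 CPM in KO and 48.1 ± 8.97 CPM in control libraries, or 16 and 935 counts. The other, ENSG00000285579 opposite EYA1, fell by 1.18 (edgeR adjusted p = 0.00449). The alternatives below were not read for these 2 features, and the strand of their reads was not tested.

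Some of these calls rest on 1 line or on the estimate of spread. With counts summed per line, so that the lines were the replicates, GAD1 (edgeR adjusted p = 0.179), MEIS2 (0.0712), NKX2-2 (0.0654), EMX2 (0.0571), MAF (0.16), PROX1 (0.107) and ENSG00000259460 (0.0692) were not called. MEIS2 (edgeR adjusted p = 0.0948) and NKX2-2 (0.117) were not called without control line 1, and ACKR3 (0.0522), EMX2 (0.0854) and SOX1 (0.0514) were not called without control line 2. In a fit with a term for the wrong-strand percent, tried only once the data had been seen, MEIS2, ACKR3, NKX2-2 and SOX1 were not called either, nor were SST (edgeR adjusted p = 0.0602), MAF (0.213), PROX1 (0.442) and ENSG00000259460 (0.259), and LIN28A was called lower in KO (-0.75, edgeR adjusted p = 0.0243). GAD1 and GAD2 were not called without KO line 2 (edgeR adjusted p = 0.194 and 0.0631) or without control line 1 (0.197 and 0.094), NKX2-2 was not called without KO line 1 (0.0638), and SST was not called without KO line 1 (0.0851), control line 1 (0.12) or control line 2 (0.0701).

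The least stable of the named calls that were followed was MAF, lost in 14 of 22 alternatives. Of these, 8 leave out 1 library: replicate B or C of control line 1, or any replicate of control line 2 or of KO line 2 (edgeR adjusted p = 0.05 to 0.101). PROX1 was lost in 11 of 23, among them without replicate B of control line 1 (0.0727), replicate A of control line 2 (0.0705) or replicate C of KO line 2 (edgeR adjusted p = 0.117). ENSG00000259460 was lost in 13 of 23, among them without replicate B or C of control line 1, A or C of control line 2, C of KO line 1 or A of KO line 2 (edgeR adjusted p = 0.0567 to 0.0917). It was also lost with the letters as a replicate block (edgeR adjusted p = 0.0562).

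**Figure D5:**
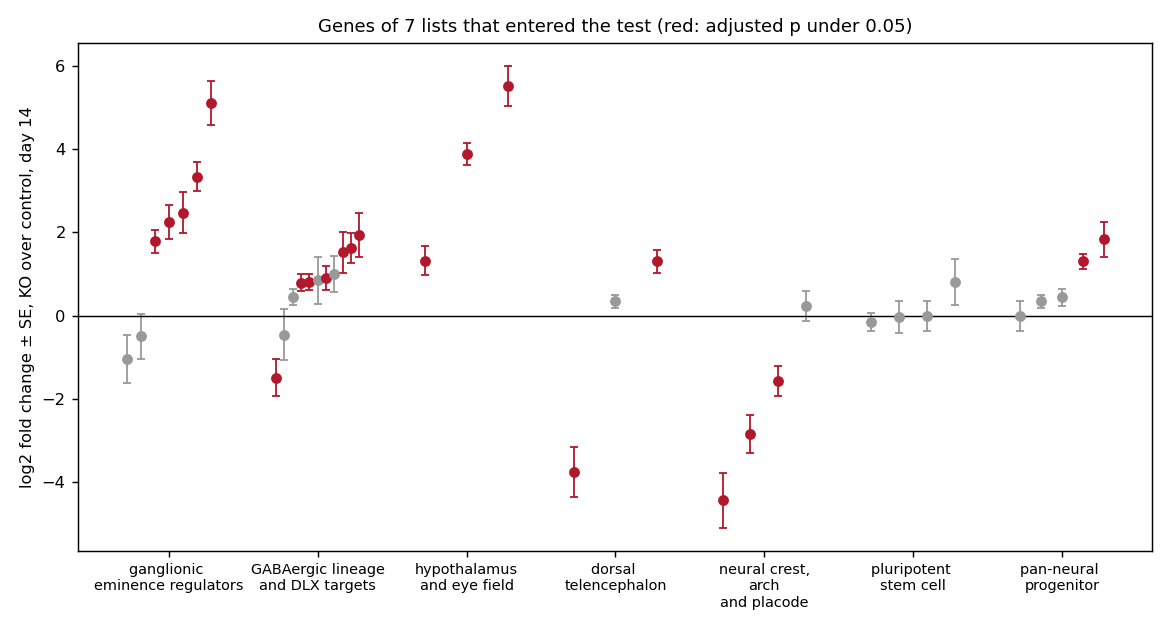
log2 fold change of KO over control at day 14 (vertical axis, bars ± SE, 6 libraries a group) for the tested genes of 7 lists (horizontal axis), in red where the adjusted p was under 0.05; no osteoblast gene entered the test. Ganglionic eminence genes reach 5.11 (NKX2-1), and neural crest, arch and placode genes reach -4.44 (TFAP2B).

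Features with a library profile most like that of the family were ranked by the overlap of their share of CPM across the 24 libraries with the mean profile of the members. The ranking covered 11758 features with a gene symbol and at least 100 counts, so ENSG00000277124 was not ranked. FANCB, a DNA repair gene, came first at 85.1%, then FEZF1 (85.0%), NOL4 (84.7%), FEZF1-AS1 (84.6%), SHH (84.5%), NKX2-1-AS1 (83.8%), GRM3-AS1 (83.5%) and MKRN3 (83.3%). FEZF1-AS1, NKX2-1-AS1 and GRM3-AS1 share exon bases with the genes on their other strand. The members themselves ranged from 71.3% for DLX6 to 88.0% for DLX5. SHH, the ventralising morphogen, had 13.5 ± 6.66 CPM in KO and 0.538 ± 0.678 CPM in control libraries, and 8.52 ± 5.27 CPM in KO line 2 against 18.5 ± 2.77 CPM in KO line 1, which overlapped neither between genotypes nor between KO lines and was not called between the lines (-1.15, SE 0.64, edgeR adjusted p = 0.527). FANCB had 69.3 ± 20.9 CPM in KO and 6.6 ± 5.33 CPM in control libraries, and NKX2-1-AS1 had 261 ± 36.8 CPM in KO and 14.3 ± 7.11 CPM in control libraries. Likeness here follows the day and genotype pattern by which the members were chosen and is a description of 24 libraries.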

How the data were processed

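Poly(A) RNA was extracted with Trizol and made into Click-Seq libraries, per the labels' protocols. The deposited values are raw counts per gene, 1 table a library. The submitters' processing notes name bcl2fastq 2.20.0, STAR 2.7.9a, GRCh38, featureCounts of Subread 2.0.1, DESeq2 1.34.0 and R 3.5.1; for the annotation release and the strand setting, nothing is given in the sources used here.

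Members and gene lists were chosen with earlier results of these data known. CPM was computed from library totals. The edgeR 4.0.16 quasi-likelihood test (R 4.3.3) was run on the counts, with TMM scaling, filterByExpr and Benjamini-Hochberg adjustment over all features tested, threshold 0.05. KO was compared with control within each day without a term for line, so the 3 libraries of a line entered as independent. Lines were compared in a fit of 4 line groups at day 14, and days in a fit of all 24 libraries. The tests were run on simulated data with independent libraries and no line effect, so the simulation does not cover libraries nested in lines. Ratios of pooled counts have exact 95% intervals, and 0 counts a floor of 3; both cover counting error only. Positions, strands and exon lengths came from GENCODE release 29, which matched 56988 of the 61248 features with 90.1% of the counts; promoters came from RefSeq.

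From each list were named the 3 called genes with the smallest adjusted p and up to 2 further tested genes with the highest mean CPM that were not called; locus neighbours within 300000 bases with at least 100 counts and the 8 features of most like profile were named too. Some genes of the lists are not reported here and were left out of their counts. Genes named beyond that were chosen after their values were seen. Alternatives were RLE scaling, DESeq2 1.42.0, every feature kept without a filter, a replicate block, sums per line, all 24 libraries in 1 fit, only the KO libraries, and leaving out each library or line; the wrong-strand percent as a covariate was added after seeing the data.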

Additional observations from a re-analysis of the deposited data

Results flagged for a closer look

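Groups of 6 libraries were examined for a library whose gap to its nearest neighbour takes more than 0.625 of the group's range. Among 75 groups, 6 were found, where chance gives about 1 in 20 for normally distributed values. That rate does not hold for groups of mostly 0 counts, where a single count can be flagged. DLX1 had 30.4 CPM in day 0 KO line 1 replicate B, against 0 in the other 5 day 0 KO libraries. DLX6 had 1.09 CPM (4 counts) in day 14 control line 1 replicate A, against 0 to 0.323 CPM in the other control libraries, and 0.622 CPM (1 count) in day 0 control line 2 replicate B, against 0. NKX2-2 had 28.7 CPM in day 14 KO line 1 replicate C, against 12.6 to 17.9 CPM in the other KO libraries. SHH had 1.89 CPM (6 counts) in day 14 control line 1 replicate B, against 0 to 0.449 CPM in the other control libraries. NKX2-1-AS1 had 28.1 CPM in day 14 control line 2 replicate A, against 7.87 to 13.6 CPM in the other control libraries.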

How the results depend on the processing

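The number of features called between KO and control at day 14 was 2474. Leaving out control line 1 gave 1552, leaving out control line 2 gave 1266, all 24 libraries in 1 fit gave 241, and a covariate for the wrong-strand percent gave 1481. At day 0 it was 0, and 13 without a filter. Between KO lines it was 184, and 338 with DESeq2, 50 from KO libraries alone, 290 with the covariate and 109 to 289 on leaving out 1 library. Between control lines it was 16, and 42 without a filter and 10 to 15 on leaving out 1 library. For day 14 against day 0 in control lines it was 4699, and 7288 with DESeq2.

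The DLX1 difference between KO lines passed the threshold with DESeq2 (-1.25, adjusted p = 0.00826), without a filter (-1.22, 0.043), from KO libraries alone (-1.23, edgeR adjusted p = 0.0433) and without KO line 1 replicate C (-1.36, edgeR adjusted p = 0.042); it ranged from -1.36 to -1.09 on leaving out 1 library. That of DLX6 ranged from -1.16 to 0.51. Of 58 such values of the members, 52 kept their direction and side of the threshold. Between days in control lines, the fold change of DLX6-AS1 kept its direction in all 16 alternatives, with no test read from it. All 80 mean levels of the members stayed within 1 SD. Most of these values leave out 1 of 6 libraries, which cannot move a mean by 1 SD, so they are no check of stability. On leaving out 1 library the day 14 KO mean ranged from 51.7 to 63.6 CPM for DLX1 and from 3.93 to 6.27 CPM for DLX6.

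With all 24 libraries in 1 fit the calls of HES5, MEIS2, ACKR3, NKX2-2, EMX2, SOX10, EYA2, SOX1, NES, SLC25A12, GAD1, GAD2, PROX1, SST, ENSG00000259460 and ENSG00000235934 were lost. With the covariate MEIS2 (0.57), ACKR3 (0.96), NKX2-2 (1.10), SOX1 (1.48), SST (-1.78), MAF (1.23), PROX1 (0.44) and ENSG00000259460 (-0.43) were not called and LIN28A was (-0.75). NKX2-1, SIX3, FEZF1, FEZF2, NEUROD1, TFAP2B and METAP1D were called between KO and control in all 23 alternatives. Uncalled genes that changed sign were TFAP2A (-0.28 without control line 1, -0.64 with the covariate), VIM (-0.25 with the covariate) and DPPA4 (0.10 without KO line 1, 0.29 without control line 2, and -0.24 to 0.17 on leaving out 1 library). The causes were not tested.

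Same-lettered libraries did not deviate together over the features as a whole (18 pairs, median r -0.0255, 1 over 0.1), so letters were not used as pairs in the main fits. Replicate C did have the highest wrong-strand percent in both KO lines (3.64 and 3.6), though in neither control line. Whether libraries of a letter were handled together in some lines was not tested. With letters as a replicate block the counts were 2256, 0, 139, 13 and 4877 in the same order, and no member's call changed. Of the other named calls that were followed, only that of ENSG00000259460 changed. Low counts limit DLX6 and the control levels.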
